A study of Mus musculus with 13 samples.

Results

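The genes of 9 transcription factors that take part in the choice of helper T cell fate were followed in developing CD4 T cells: the interferon regulatory factors *Irf1*, *Irf2*, *Irf4* and *Irf8*, the repressors *Bach2*, *Bcl6* and *Prdm1*, and the lineage factors *Tbx21* and *Maf*. They were taken by name, as 9 of the 35906 genes into which the transcripts of the files could be summed, with earlier results of these data known. RNA came from sorted CD69-MHCI+ CD4 single-positive thymocytes, the mature 2 (M2) stage, with 1 mouse per library. All mice carried the Lm54 TCR transgene, which recognizes a peptide of listeriolysin O (LLO), on a Rag1-/- background, so that the T cells of each mouse share 1 receptor. In *Ctsl*ΔTEC mice a Foxn1-cre transgene removes cathepsin L from thymic epithelial cells, on which the thymocytes are positively selected, and the thymocytes themselves are not the target. Control mice were labelled Ctsl fl/fl (WT). Unstimulated cells came from 5 *Ctsl*ΔTEC mice (mice 1 to 5) and 4 control mice (mice 1 to 4). Stimulated cells came from 2 further *Ctsl*ΔTEC mice (mice 6 and 7) and 2 further control mice (mice 5 and 6), and were kept for 4 h with plate-bound LLO:I-Ab monomer at 1 µg per ml and soluble anti-CD28 at 250 ng per ml. Mouse ages are not given in the labels.

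As background, IRF proteins bind interferon-response elements in DNA. IRF1 and IRF2 share such sites, IRF1 as an interferon-induced activator and IRF2 mostly as its antagonist. IRF4 and IRF8 are the lymphoid members of the family, which bind DNA poorly alone and act in pairs with BATF–JUN dimers or ETS factors. *Irf4* is induced by T cell receptor signals in a graded way and is needed for effector differentiation. BCL6 and BLIMP-1, the product of *Prdm1*, repress each other, and the former directs T follicular helper cells and the latter terminal effector cells. BACH2 restrains effector genes in naive T cells, T-bet, the product of *Tbx21*, directs Th1 cells, and MAF promotes IL-4, IL-10 and IL-21 in several helper lineages.

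The annotation (GENCODE M21, GRCm38) places *Irf1* (ENSMUSG00000018899) on chromosome 11 from 53770014 to 53778374, *Irf4* (ENSMUSG00000021356) on chromosome 13 from 30749226 to 30766976, *Irf8* (ENSMUSG00000041515) on chromosome 8 from 120736358 to 120756694 and *Bcl6* (ENSMUSG00000022508) on chromosome 16 from 23965052 to 23988852. Promoter sequences from RefSeq (GRCm38.p6) were found for 8 of the 9 genes, and none was used for *Maf*. The 250 bases before the annotated start are shown for 3 genes that rose together on stimulation and for *Irf1*, which fell, each 5′ to 3′ on the strand of the gene. Capitals mark every match, on either strand, to 6 short motifs: an IRF composite (GAAANNGAA), an AP-1 or BACH motif (TGANTCA), a STAT motif (TTCNNNGAA), a BCL6 motif (TTCCTNGAA, every match of which is also a STAT match), a Rel motif (GGNNNTTCC) and a T-box motif (AGGTGTGA).
Irf4, chr13:30748983-30749232, plus strand: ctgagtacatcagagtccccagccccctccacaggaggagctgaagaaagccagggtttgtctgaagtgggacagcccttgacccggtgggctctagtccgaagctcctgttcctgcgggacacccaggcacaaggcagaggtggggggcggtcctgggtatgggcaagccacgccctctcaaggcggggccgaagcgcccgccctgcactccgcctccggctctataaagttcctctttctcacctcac
Irf8, chr8:120736108-120736357, plus strand: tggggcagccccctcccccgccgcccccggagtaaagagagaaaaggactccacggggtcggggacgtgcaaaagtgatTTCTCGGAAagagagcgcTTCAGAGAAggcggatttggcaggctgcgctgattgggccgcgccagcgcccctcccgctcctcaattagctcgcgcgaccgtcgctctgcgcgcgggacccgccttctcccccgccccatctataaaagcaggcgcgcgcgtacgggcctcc
Bcl6, chr16:23988853-23989102, minus strand: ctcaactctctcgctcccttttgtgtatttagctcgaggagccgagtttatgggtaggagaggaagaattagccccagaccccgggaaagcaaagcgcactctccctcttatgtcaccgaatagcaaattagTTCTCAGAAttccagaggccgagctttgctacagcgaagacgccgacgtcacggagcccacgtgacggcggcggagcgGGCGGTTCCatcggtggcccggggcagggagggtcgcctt
Irf1, chr11:53769764-53770013, plus strand: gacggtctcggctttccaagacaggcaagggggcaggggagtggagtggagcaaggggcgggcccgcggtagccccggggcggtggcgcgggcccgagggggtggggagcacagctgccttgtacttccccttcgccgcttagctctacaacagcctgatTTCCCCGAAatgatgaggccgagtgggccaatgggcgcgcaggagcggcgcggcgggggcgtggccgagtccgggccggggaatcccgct

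No letters of the 6 motifs were found in the *Irf4* window. The *Irf8* window held 2 STAT matches, at 171 and 153 bases before the start, and the *Irf1* window 1, at 90 bases. The *Bcl6* window held a STAT match at 118 bases and a Rel match at 40 bases. Counting all annotated starts, the STAT letters stood in 6 of 11 windows of the 8 genes (*Irf1*, *Irf2*, *Irf8*, *Bach2* and *Bcl6*), against 7.02% of 32851 RefSeq promoters of the same length. The IRF composite was found only before *Irf2* (7.13% of all promoters), and the AP-1 or BACH motif only before *Prdm1* (6.75% of all promoters). Rel letters were found before *Irf2*, *Bach2*, *Bcl6* and *Tbx21* (15.7% of all promoters), the BCL6 motif before another start of *Bcl6* (1.31%) and the T-box motif before none (1.12%). These matches describe letters and not bound sites.

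Estimated counts per library ranged from 25692380 to 39127833 without and from 8085463 to 27184520 with stimulation, with control mouse 5 the shallowest. Stimulated cells were cultured and carry a date of their own, and a cultured unstimulated control was not analysed here, so culture, date and stimulation cannot be told apart. Of the M2 markers all 6 were detected in every group, and *Cd4* was at 745 to 1156 CPM (counts-per-million after normalization). The 5 markers of double-positive thymocytes, all detected, summed to 213 to 269 CPM in unstimulated *Ctsl*ΔTEC and 46.7 to 68.2 CPM in unstimulated control libraries, and *Cd8a* alone to 23.1 to 33.5 and 4.10 to 4.65 CPM. The B cell list summed to at most 2.46 CPM in any library, with *Pax5* at 0 in 3 of the 4 groups, and the list of dendritic cells to at most 1.80 CPM in unstimulated libraries. *Rag1* was at 0.265 to 26.5 CPM, and whether these reads lie in the deleted part was not tested, while *Ctsl*, at 3.30 to 17.9 CPM, is not deleted in thymocytes and so checks nothing. The Y-linked gene *Ddx3y* was above 1 CPM in 5 of 5 *Ctsl*ΔTEC and 1 of 4 control unstimulated libraries, the latter from control mouse 3, and in 1 of 2 stimulated libraries of each genotype.

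Per unit length, as transcripts-per-million (TPM), the same order held at the top in unstimulated cells of both genotypes. *Irf1* had the highest level among the 9 genes, with a median of 110 TPM in *Ctsl*ΔTEC and 105 TPM in control mice. *Irf2* followed at 68.8 and 67.8 TPM, and *Bach2* at 35.9 and 39.4 TPM, with no overlap between neighbours in this order. *Irf4* was next, at 13.1 TPM (7.64 to 13.8) in *Ctsl*ΔTEC and 23.1 TPM (15.8 to 27.2) in control mice, above *Bcl6* at 8.94 and 4.64 TPM. In *Ctsl*ΔTEC mice the values of *Irf4* and *Bcl6* overlapped, and in control mice they did not. *Prdm1* (3.23 and 2.36 TPM), *Maf* (1.29 and 1.85 TPM) and *Irf8* (0.531 and 0.746 TPM) came last among the detected genes, and *Prdm1* and *Maf* overlapped in control mice. *Tbx21* had 0 counts in all 9 unstimulated libraries.

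Stimulation reordered these levels. *Irf4* became the highest of the 9, at 485 TPM in both *Ctsl*ΔTEC mice and at 588 and 679 TPM in the control mice. *Bach2* (median 114 and 95.7 TPM in *Ctsl*ΔTEC and control mice) and *Bcl6* (113 and 75.2 TPM) followed and overlapped in both genotypes. Much of that *Bach2* level came from short transcripts with few counts, described below. The long coding transcript *Bach2*-202 alone was at 34.2 to 46.8 TPM, below every *Bcl6* value (58.1 to 127 TPM). Its means were 37.0 TPM in *Ctsl*ΔTEC and 43.8 TPM in control mice. *Irf8* came next in *Ctsl*ΔTEC cells, at 29.2 TPM, above *Irf2* at 24.0 and *Irf1* at 12.5 TPM, whereas in control cells it was at 14.4 TPM, below *Irf2* at 30.8 and *Irf1* at 19.7 TPM. The ranges of these 3 genes did not overlap within either genotype. *Maf*, *Prdm1* and *Tbx21* were at most 0.722 TPM in stimulated cells, apart from *Prdm1* in control mouse 5 at 1.24 TPM, and their ranges overlapped in control cells.

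Within the IRF family as a whole, *Irf3* was the most abundant gene of unstimulated cells, with a median share of 40.4% of all IRF transcripts in *Ctsl*ΔTEC and 38.0% in control mice. *Irf1* held 21.9% and 20.5%, *Irf2* 12.8% and 13.1%, *Irf4* 2.52% and 4.47% and *Irf8* 0.110% and 0.143%. After stimulation *Irf4* alone held 57.7% and 58.2% in the *Ctsl*ΔTEC mice and 67.4% and 70.1% in the control mice. The median share of *Irf1* was then 1.49% and 2.18%, that of *Irf2* 2.87% and 3.31%, and that of *Irf8* 3.48% and 1.55%. The summed level of all IRF genes was 477 to 549 TPM in unstimulated and 834 to 1006 TPM in stimulated libraries.

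**Figure D1:**
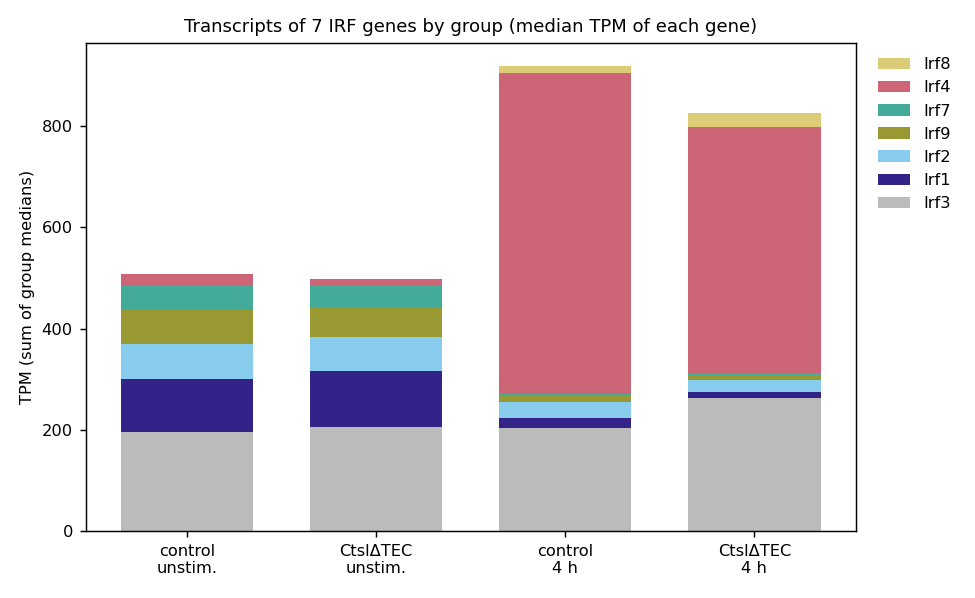
Median TPM of 7 IRF genes (*Irf1*, *Irf2*, *Irf3*, *Irf4*, *Irf7*, *Irf8* and *Irf9*), stacked by group (vertical axis, TPM per group, linear from 0; control and *Ctsl*ΔTEC, unstimulated and after 4 h). *Irf4* takes a thin layer of the unstimulated bars (23.1 TPM in control and 13.1 TPM in *Ctsl*ΔTEC cells) and most of the stimulated ones (633 and 485 TPM), while the layers of *Irf1*, *Irf2*, *Irf7* and *Irf9* are thinner in stimulated cells.

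The annotated transcripts that carried these reads were also summed. A transcript with a mean share of at least 10% of the gene's TPM in any group was named, which gave 20 transcripts. *Bcl6*-201 held 91.6% to 96.3% of *Bcl6* TPM, *Irf2*-201 78.7% to 87.6% of *Irf2*, *Maf*-202 87.6% to 98.5% of *Maf* and *Irf8*-201 68.7% to 77.2% of *Irf8*. *Irf4* was divided mainly between *Irf4*-201 (46.2% to 53.3%) and *Irf4*-202 (34.0% to 43.8%), which differ by 3 bases in length (4764 and 4761 bases). The short *Irf4*-203 (360 bases) held 10.0% to 14.4% of *Irf4* TPM on 0.338% to 0.482% of the counts of the gene. *Irf1*-202 held 76.0% and 78.8% of *Irf1* TPM in unstimulated *Ctsl*ΔTEC and control cells and 76.7% and 50.8% in stimulated ones, and *Irf1*-201 held 14.3% in stimulated control cells, on 28.6 and 115 counts, against 0.0101% in stimulated *Ctsl*ΔTEC cells. In *Bach2* the coding transcript *Bach2*-202 held 67.4% and 69.0% of TPM in unstimulated but 32.7% and 45.9% in stimulated *Ctsl*ΔTEC and control cells. The short processed transcript *Bach2*-205 (336 bases) took 44.1% and 30.7% of TPM after stimulation, on 1.58% and 0.742% of the counts of the gene. Its TPM rests on 19.4 to 64.7 estimated counts per stimulated library. The level of *Bach2*-202 itself was 22.8 to 32.3 TPM in unstimulated and 34.2 to 46.8 TPM in stimulated libraries. *Prdm1*-202, a coding transcript of 4025 bases, held 17.1% and 22.1% of *Prdm1* TPM in unstimulated cells and had 0 counts in all 4 stimulated libraries, which held 5 to 19 counts of the gene in all.

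The response to antigen and CD28 engagement was compared within each genotype in a 4-group model of all 13 libraries with the edgeR quasi-likelihood test, which was adjusted over 14241 genes by Benjamini-Hochberg with a threshold of 0.1. *Tbx21*, with 0 counts in all 9 unstimulated libraries, entered the model only through stimulated ones, so its call as higher is not counted here. Of the other 8 genes all 8 passed in control cells, against 67.7% of all genes tested, and all 8 in *Ctsl*ΔTEC cells, against 71.2% of all genes. The 4 genes higher after stimulation in control cells were *Irf4*, *Irf8*, *Bcl6* and *Bach2* (background 32.9% of genes higher), and the 4 lower ones *Irf1*, *Irf2*, *Prdm1* and *Maf* (34.8% lower). The same genes made up the 4 higher and 4 lower in *Ctsl*ΔTEC cells, where 32.9% of all genes were higher and 38.2% lower. Because most genes changed, passing the test is not particular to these factors, and the sizes are given below gene by gene as CPM in every mouse.

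*Irf4*, the factor of graded TCR responses, was at 38.7, 48.8, 23.2, 25.8 and 42.1 CPM in unstimulated *Ctsl*ΔTEC mice 1 to 5. In unstimulated control mice 1 to 4 it was at 48.8, 82.6, 64.9 and 82.0 CPM. After stimulation it reached 1610 and 1555 CPM in *Ctsl*ΔTEC mice 6 and 7 and 2091 and 2131 CPM in control mice 5 and 6. Every stimulated library lay more than an order of magnitude above every unstimulated one. The log2 fold change was 5.47 (standard error, SE, 0.24 and adjusted p = 5.45e-11 by edgeR) in *Ctsl*ΔTEC and 4.92 (SE 0.26 and adjusted p = 4.96e-10 by edgeR) in control cells, or 44.2-fold and 30.3-fold.

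*Irf8*, which is best known in dendritic and B cells, was low before stimulation. It was at 0.986, 0.845, 1.04, 1.08 and 1.05 CPM in *Ctsl*ΔTEC mice 1 to 5 and at 1.22, 1.37, 1.19 and 1.11 CPM in control mice 1 to 4, on 28 to 42 counts per library. After stimulation *Ctsl*ΔTEC mice had 51.5 and 46.3 CPM and stimulated control mice 23.3 and 28.3 CPM. All 4 stimulated libraries were far above the unstimulated ones, and those of *Ctsl*ΔTEC mice were the higher pair. The log2 fold change was 5.61 (SE 0.13 and adjusted p = 1.42e-13 by edgeR) in *Ctsl*ΔTEC and 4.41 (SE 0.14 and adjusted p = 3.45e-12 by edgeR) in control cells. The dendritic cell list summed to 2.28 and 3.52 CPM in the stimulated *Ctsl*ΔTEC libraries, with 5 of 6 markers detected and *Clec9a* at 0, and to 7.28 and 16.9 CPM in the control libraries, with 6 of 6 detected and most of the sum from *Itgax* (6.22 and 15.4 CPM). The B cell list summed to 0.812 to 1.33 CPM in stimulated libraries, with *Pax5* and *Cd79b* at 0 in both genotypes. The part of such cells in the *Irf8* values was not tested.

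*Bcl6*, the repressor that directs follicular helper cells, was at 22.0, 21.9, 21.6, 21.9 and 21.9 CPM in unstimulated *Ctsl*ΔTEC mice 1 to 5, an SD of 0.163 CPM. In unstimulated control mice it was at 14.8, 12.3, 11.3 and 12.0 CPM. Stimulated *Ctsl*ΔTEC mice had 354 and 271 CPM and stimulated control mice 171 and 243 CPM. Again no stimulated library overlapped the unstimulated ones. *Bcl6* rose by 3.84 on the log2 scale (SE 0.13 and adjusted p = 2.55e-12 by edgeR) in *Ctsl*ΔTEC and by 4.04 (SE 0.14 and adjusted p = 7.41e-12 by edgeR) in control cells.

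*Prdm1*, which encodes BLIMP-1, moved the other way. It was at 10.1, 12.3, 10.2, 11.4 and 11.6 CPM in unstimulated *Ctsl*ΔTEC mice and at 8.55, 8.87, 8.18 and 7.11 CPM in unstimulated control mice. With stimulation *Ctsl*ΔTEC mice kept 0.451 and 0.632 CPM, from 5 and 10 counts, and stimulated control mice 1.59 and 0.738 CPM, from 12 and 19 counts. *Prdm1* fell by 4.31 on the log2 scale (SE 0.28 and adjusted p = 2.91e-09 by edgeR) in *Ctsl*ΔTEC and fell by 3.02 (SE 0.26 and adjusted p = 8.93e-08 by edgeR) in control cells. As a ratio of TPM, *Bcl6* to *Prdm1* was 1.82 to 2.84 in the 9 unstimulated libraries and 46.9 to 662 in the 4 stimulated ones, the lowest of which was control mouse 5.

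*Bach2*, the guardian of the naive state, was at 186, 187, 211, 163 and 180.0 CPM in unstimulated *Ctsl*ΔTEC mice and at 239, 224, 184 and 175 CPM in unstimulated control mice. Stimulated *Ctsl*ΔTEC mice had 283 and 323 CPM and stimulated control mice 334 and 351 CPM. The 4 stimulated libraries were above all 9 unstimulated ones. The log2 fold change was 0.71 (SE 0.12 and adjusted p = 9.20e-05 by edgeR) in *Ctsl*ΔTEC and 0.74 (SE 0.12 and adjusted p = 1.04e-04 by edgeR) in control cells. With an offset for average transcript length it was 1.69 and 1.36.

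*Tbx21*, the gene of T-bet, was not detected before stimulation, with 0 counts in all 9 unstimulated libraries. Among stimulated mice, *Ctsl*ΔTEC mice had 10 and 6 counts and stimulated control mice 0 and 33 counts, at most 1.28 CPM. Against a floor of 3 counts over each unstimulated group, the pooled level was at least 31.3-fold higher in *Ctsl*ΔTEC and at least 39.1-fold higher in control cells. Such a limit covers counting error only, and that of control cells rests on mouse 6 alone, since control mouse 5 had 0 counts. *Tbx21* passed the edgeR test against these groups of 0 counts, in control cells on mouse 6 alone. With DESeq2 it did not pass in either genotype (adjusted p = 0.160 in *Ctsl*ΔTEC and 0.198 in control cells).

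*Irf1*, the interferon-induced activator, was at 147, 124, 152, 137 and 137 CPM in unstimulated *Ctsl*ΔTEC mice and at 134, 143, 125 and 162 CPM in unstimulated control mice. In stimulated cells *Ctsl*ΔTEC mice had 15.0 and 19.3 CPM and stimulated control mice 25.7 and 22.1 CPM. *Irf1* was thus the most abundant of the 9 genes per length before stimulation and one of those that fell most. It fell by 3.01 on the log2 scale (SE 0.15 and adjusted p = 1.26e-10 by edgeR) in *Ctsl*ΔTEC and fell by 2.57 (SE 0.14 and adjusted p = 8.64e-10 by edgeR) in control cells.

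*Irf2*, its antagonist, was at 101, 97.4, 93.1, 110.5 and 106.2 CPM in unstimulated *Ctsl*ΔTEC mice and at 109, 106.1, 111 and 100.04 CPM in unstimulated control mice. Stimulated *Ctsl*ΔTEC mice had 40.1 and 36.5 CPM and stimulated control mice 45.8 and 53.6 CPM. The log2 fold change was -1.41 (SE 0.10 and adjusted p = 7.89e-09 by edgeR) in *Ctsl*ΔTEC and -1.09 (SE 0.10 and adjusted p = 1.75e-07 by edgeR) in control cells. Per length, *Irf1* exceeded *Irf2* in all 9 unstimulated libraries, with TPM ratios of 1.43 to 2.16, and was below it in all 4 stimulated ones, with ratios of 0.477 to 0.878.

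*Maf*, a factor of IL-4 and IL-21 production, was at 6.50, 4.69, 4.95, 5.52 and 5.69 CPM in unstimulated *Ctsl*ΔTEC mice and at 10.0, 8.31, 8.22 and 8.47 CPM in unstimulated control mice. Stimulated *Ctsl*ΔTEC mice had 1.62 and 1.52 CPM and stimulated control mice 2.38 and 3.34 CPM, on 18 to 86 counts per library. Stimulated values were below all unstimulated ones in both genotypes. *Maf* fell by 1.80 on the log2 scale (SE 0.22 and adjusted p = 2.69e-06 by edgeR) in *Ctsl*ΔTEC and fell by 1.56 (SE 0.20 and adjusted p = 7.21e-06 by edgeR) in control cells.

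**Figure D2:**
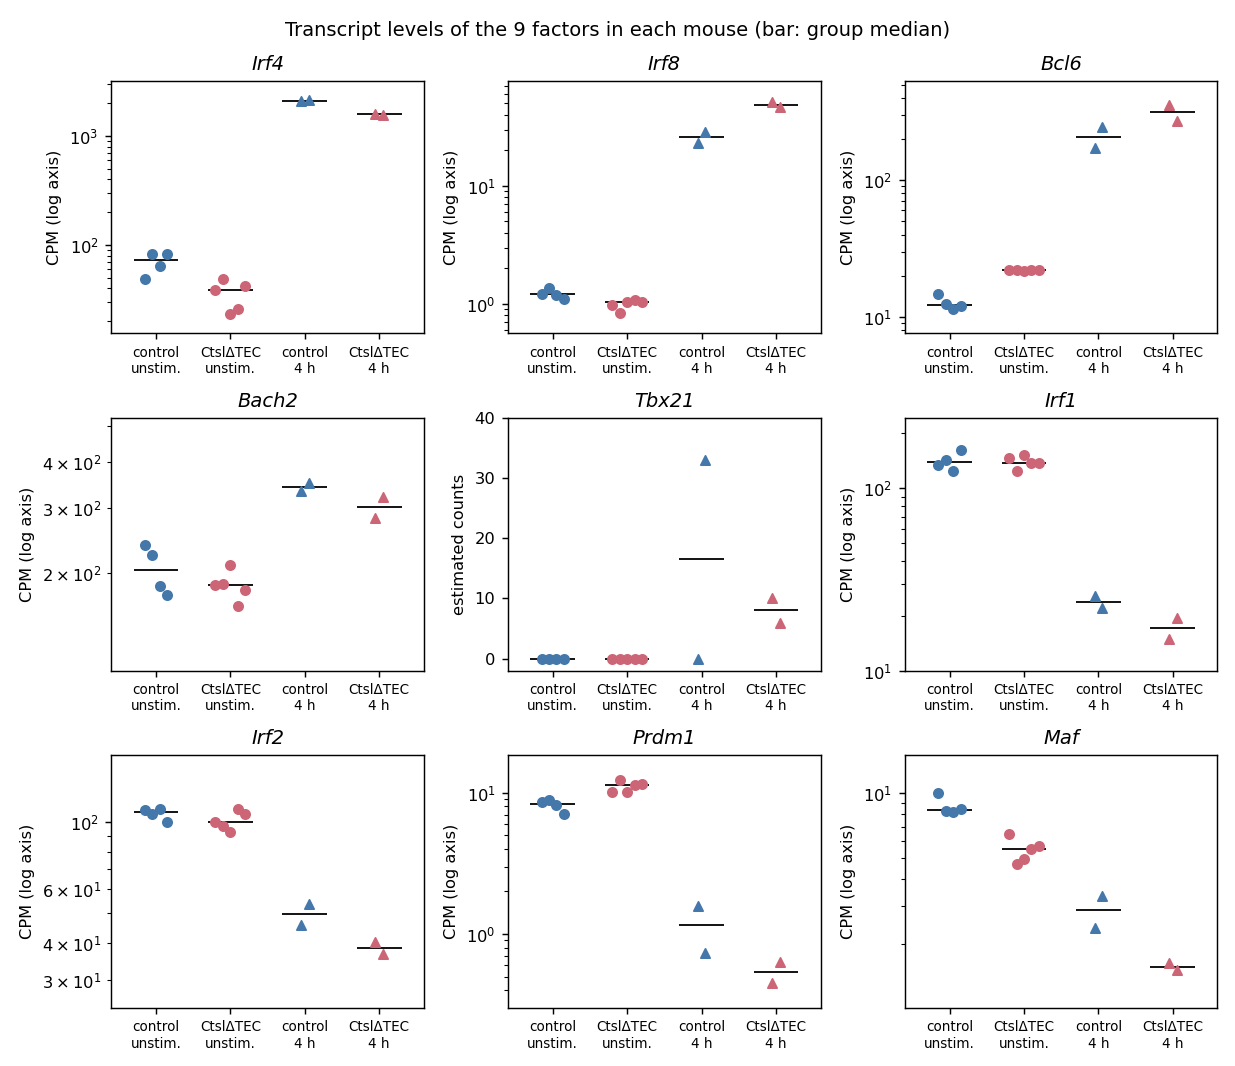
CPM on a log axis (estimated counts on a linear axis for *Tbx21*) of the 9 genes in each of the 13 mice, in control (blue) and *Ctsl*ΔTEC (red) groups, unstimulated (circles) and after 4 h (triangles), with a bar at the group median. *Irf4*, *Irf8* and *Bcl6* lie far higher in stimulated mice, *Irf1*, *Irf2*, *Prdm1* and *Maf* lower, and *Tbx21* is at 0 in all 9 unstimulated mice.

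**Figure D3:**
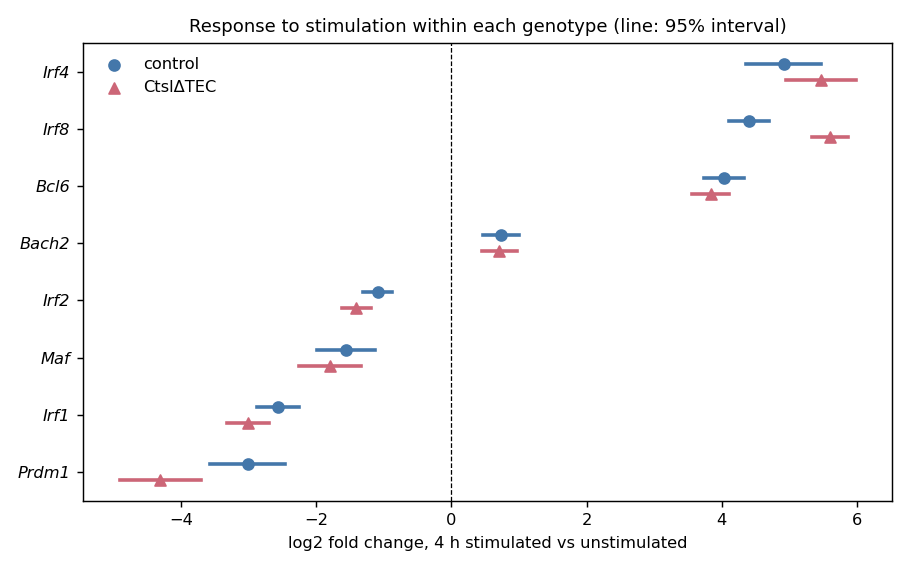
Log2 fold change of stimulated against unstimulated cells (horizontal axis) for 8 of the genes in control (circles) and *Ctsl*ΔTEC (triangles) cells, with 95% intervals as lines; *Tbx21* is left out because its fold is only a bound. The intervals of the genotypes are apart for *Irf8* (4.12 to 4.70 in control and 5.33 to 5.88 in *Ctsl*ΔTEC cells) and for *Prdm1* (-3.57 to -2.47 and -4.91 to -3.72), and overlap for the other 6.

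Before stimulation the genotypes were compared over the 9 unstimulated libraries, to ask whether selection without epithelial cathepsin L left a trace in these factors. *Irf4* and *Maf* were lower and *Bcl6* and *Prdm1* higher in *Ctsl*ΔTEC cells. Of 8 genes tested (*Tbx21* had no counts), these 4 passed the edgeR quasi-likelihood test, against 14.8% of 13152 genes. The 2 higher genes compare with 6.42% of all genes, and the 2 lower genes with 8.36%. In bulk RNA, fewer cells that express a gene and less RNA of it per cell cannot be told apart.

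*Bcl6* differed with the smallest p. Its mean was 21.9 ± 0.163 CPM (SD, n = 5) in *Ctsl*ΔTEC and 12.6 ± 1.50 CPM (SD, n = 4) in control mice, and its log2 fold change was 0.79 (SE 0.08 and adjusted p = 1.16e-04 by edgeR), or 1.73-fold. *Irf4* was at 35.7 ± 10.9 CPM and 69.6 ± 16.1 CPM, which gave a log2 fold change of -0.96 (SE 0.22 and adjusted p = 0.0162 by edgeR). The genotypes only just separated for *Irf4*, since *Ctsl*ΔTEC mouse 2 and control mouse 1 were both at 48.8 CPM. *Maf* was at 5.47 ± 0.705 and 8.75 ± 0.842 CPM, which gave -0.67 on the log2 scale (SE 0.12 and adjusted p = 0.00420 by edgeR). *Prdm1* was at 11.1 ± 0.932 and 8.18 ± 0.766 CPM, which gave 0.45 on the log2 scale (SE 0.10 and adjusted p = 0.0150 by edgeR).

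The other 4 genes did not pass. *Irf8* had a log2 fold change of -0.28 (95% interval -0.68 to 0.11, adjusted p = 0.377, edgeR quasi-likelihood), although its CPM did not overlap between genotypes. Its TPM did overlap, at 0.507 to 0.779 in *Ctsl*ΔTEC and 0.600 to 1.18 in control mice. *Bach2* had one of -0.14 (interval -0.37 to 0.08), *Irf2* of -0.07 (interval -0.21 to 0.07) and *Irf1* of -0.01 (interval -0.20 to 0.17). As folds, the intervals ran from 0.868 to 1.13 for *Irf1* and from 0.865 to 1.05 for *Irf2*. In all, the CPM of the genotypes did not overlap for 5 of 8 genes (*Irf4*, *Irf8*, *Bcl6*, *Prdm1* and *Maf*), against 13.9% of all genes tested. A two-sided exact permutation test on log2 CPM gave p = 0.00794, the smallest that 5 mice against 4 allow, for *Irf8*, *Bcl6*, *Prdm1* and *Maf*. For *Irf4* it gave p = 0.0159, for *Bach2* and *Irf2* p = 0.262 and for *Irf1* p = 0.881, in each case by exact permutation.

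Y-linked transcripts and dates were not evenly divided between the unstimulated genotypes. With the level of Y-linked transcripts as a covariate, only *Bcl6* of the 4 still passed (0.95, adjusted p = 0.00960, edgeR quasi-likelihood). The log2 fold changes were then -0.84 for *Irf4* (adjusted p = 0.380, edgeR), -0.57 for *Maf* (adjusted p = 0.253, edgeR) and 0.43 for *Prdm1* (adjusted p = 0.366, edgeR). Control mouse 3, the control with Y-linked transcripts, had 64.9 CPM of *Irf4* and 8.22 CPM of *Maf*, above all 5 *Ctsl*ΔTEC mice, and 11.3 CPM of *Bcl6* and 8.18 CPM of *Prdm1*, below all 5. Within the later of the 2 dates alone, 3 mice against 3, the log2 fold changes were -0.75 for *Irf4*, -0.74 for *Maf*, 0.77 for *Bcl6* and 0.46 for *Prdm1*, and all 4 passed. The double-positive thymocyte markers were higher in *Ctsl*ΔTEC libraries, as given above, and the 4 regulatory T cell markers summed to 19.9 to 24.2 CPM against 9.07 to 15.7 CPM. Within that list *Il2ra* and *Ctla4* were the higher genes in *Ctsl*ΔTEC libraries, *Foxp3* overlapped (0.670 to 1.15 against 0.611 to 1.12 CPM) and *Ikzf2* was lower (2.91 to 4.21 against 4.83 to 6.93 CPM). The 6 M2 markers summed to 3257 to 3532 CPM in *Ctsl*ΔTEC and 3934 to 4495 CPM in control libraries. The 5 markers of NK and innate-like cells, with *Ncr1* at 0 in both, summed to 0.4797 to 0.848 CPM against 1.88 to 2.73 CPM. The 5 macrophage and monocyte markers summed to 5.37 to 7.43 CPM against 3.23 to 5.22 CPM, and the 4 thymic epithelial markers to 3.39 to 5.16 CPM against 2.53 to 3.15 CPM, all detected in both. The part of these cells in the differences was not tested.

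**Figure D4:**
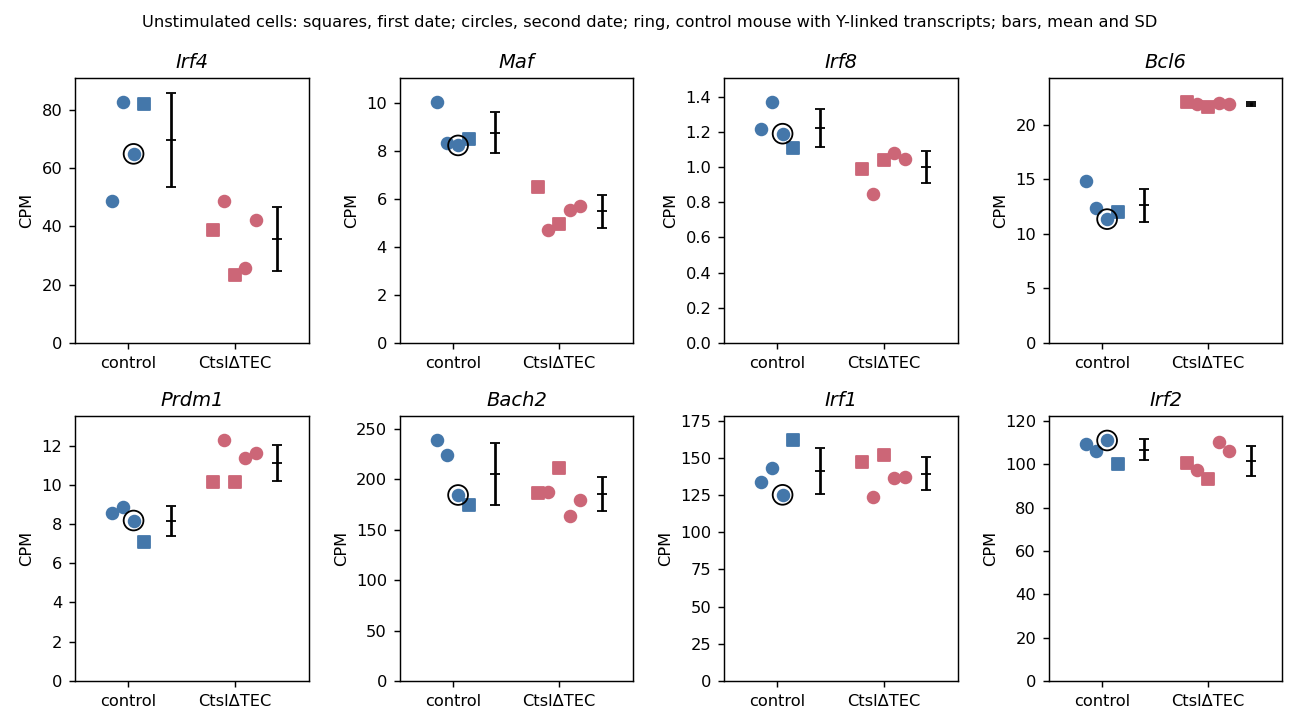
CPM (linear axis from 0) of 8 genes in unstimulated control (blue, n = 4) and *Ctsl*ΔTEC (red, n = 5) mice, with mean and SD at the side; squares and circles are the earlier and later date, and the ring marks the control mouse with Y-linked transcripts. The 5 *Ctsl*ΔTEC mice lie between 21.6 and 22.0 CPM for *Bcl6*, above every control mouse, and *Irf1*, *Irf2* and *Bach2* overlap between genotypes.

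After 4 h of stimulation the genotypes were compared within the model of 13 libraries, with 2 mice each. *Irf8* and *Bcl6* were higher and *Irf1*, *Irf2* and *Maf* lower in *Ctsl*ΔTEC cells, so 5 of 9 genes passed, against 13.3% of 14241 genes. The 2 higher genes stand against 2.77% of genes and the 3 lower ones against 10.6%. The CPM of the genotypes did not overlap for 8 of the 9 genes, against 49.6% of all genes, so that separation of 2 mice from 2 was common here. Markers differed too, with the double-positive list at 72.3 to 78.2 CPM in stimulated *Ctsl*ΔTEC and 26.1 to 30.7 CPM in stimulated control libraries (5 of 5 detected in each). The 6 activation markers, all detected, summed to 12094 to 12263 CPM against 9048 to 10715 CPM, mostly from *Nr4a1* and *Cd69*, while *Il2*, also in the list, was lower (3.07 and 5.75 against 50.7 and 54.4 CPM). The 4 regulatory T cell markers summed to 793 to 832 CPM against 704 to 759 CPM, mostly from *Il2ra*, and the thymic epithelial list to 13.3 to 15.1 CPM (2 of 4 detected, *Foxn1* and *Krt8* at 0) against 10.9 to 12.9 CPM (3 of 4, *Krt8* at 0). The part of any of these in the differences between stimulated genotypes, and in the interaction given further on, was not tested.

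*Irf8* showed the clearest difference. Its mean was 48.9 ± 3.72 CPM in *Ctsl*ΔTEC and 25.8 ± 3.57 CPM in control cells (SD, n = 2 each), a log2 fold change of 0.91 (SE 0.15 and adjusted p = 0.00158 by edgeR), or 1.88-fold. Fitted on the 4 stimulated libraries alone it was 0.96 and passed, and with each mouse left out in turn it was 0.78 to 1.06 and passed every time. *Bcl6* had a log2 fold change of 0.59 (SE 0.16 and adjusted p = 0.0300 by edgeR). It no longer passed without *Ctsl*ΔTEC mouse 6 (0.38) or without control mouse 5 (0.35).

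*Maf* was lower, with a log2 fold change of -0.92 (SE 0.25 and adjusted p = 0.0353 by edgeR), *Irf2* with -0.38 (SE 0.11 and adjusted p = 0.0462 by edgeR) and *Irf1* with -0.46 (SE 0.16 and adjusted p = 0.0849 by edgeR). None of these 3 passed when the 4 stimulated libraries were fitted alone. *Maf* and *Irf2* were also lost without *Ctsl*ΔTEC mouse 6 (-0.97 and -0.45), without *Ctsl*ΔTEC mouse 7 (-0.88 and -0.33) and without control mouse 6 (-0.61 and -0.26), and *Irf1* without *Ctsl*ΔTEC mouse 6 (-0.30), without control mouse 5 (-0.37) and in 6 of the 9 fits that left out an unstimulated mouse. The *Irf1* call was lost as well with RLE factors (-0.44), upper-quartile factors (-0.41), at least 10 counts in every library (-0.39), the Y-linked covariate (-0.45), thinning (-0.42) and a threshold of 0.05, and that of *Irf2* with the length offset (-0.39). *Irf4*, at 1582 ± 38.5 and 2111 ± 28.0 CPM, did not pass, with a log2 fold change of -0.42 (interval -1.04 to 0.21, adjusted p = 0.443, edgeR). *Bach2* (-0.18, interval -0.49 to 0.14), *Prdm1* (-0.85, SE 0.38 and adjusted p = 0.318 by edgeR) and *Tbx21* (-0.35, interval -2.86 to 2.15) did not pass either. *Prdm1* passed only without control mouse 6 (-1.52, adjusted p = 0.0745, edgeR).

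Whether stimulation changed the genotype difference was tested as an interaction. For *Tbx21*, at 0 counts in both unstimulated groups, the interaction could not be estimated (SE 867). *Irf8* was the 1 gene of the other 8 that passed, against 6.01% of all genes. Its log2 fold change between genotypes went from -0.28 in unstimulated to 0.91 in stimulated cells, an interaction of 1.20 on the log2 scale (SE 0.20 and adjusted p = 0.00555 by edgeR), so that its induction was 2.29-fold greater in *Ctsl*ΔTEC cells. It passed under each alternative of scaling, filter, covariate, depth and tool that was run, and was 1.06 to 1.35 when each mouse was left out. *Prdm1* had an interaction of -1.29 (SE 0.40 and adjusted p = 0.109 by edgeR), and passed with library totals as the scaling (-1.35) and without control mouse 6 (-1.96). *Irf4* had one of 0.54 (interval -0.22 to 1.30), *Bcl6* of -0.20 (interval -0.61 to 0.21), *Maf* of -0.24 (interval -0.85 to 0.37) and *Bach2* of -0.03 (interval -0.41 to 0.35). For *Irf1* (-0.44, interval -0.83 to -0.05) and *Irf2* (-0.31, interval -0.60 to -0.03) the intervals did not include 0 but the adjusted p was 0.237 and 0.255 (edgeR).

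The levels of *Irf4* and *Irf8* were also set side by side, with no test. The TPM ratio of *Irf4* to *Irf8* was 15.8 and 17.6 in stimulated *Ctsl*ΔTEC mice and 50.7 and 39.3 in stimulated control mice. In unstimulated cells it was 9.81 to 27.3 in *Ctsl*ΔTEC and 20.3 to 38.2 in control mice, which overlap, on few *Irf8* counts.

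**Figure D5:**
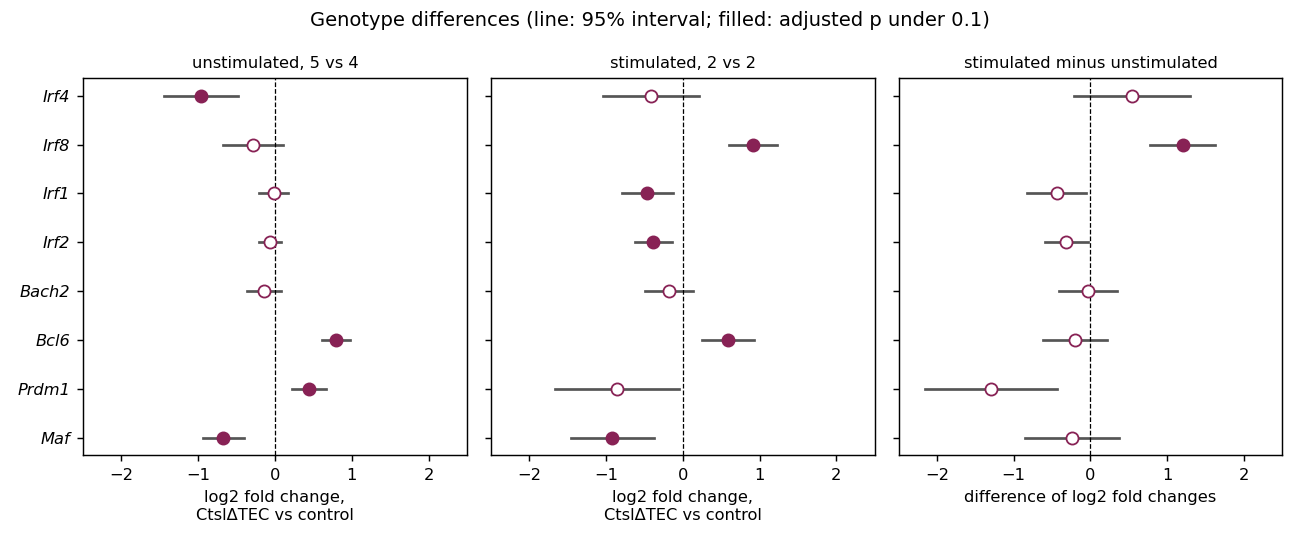
Log2 fold change of *Ctsl*ΔTEC against control cells for 8 genes in unstimulated cells (left) and stimulated cells (middle), and the difference between them (right), with 95% intervals as lines and filled points where the adjusted p was under 0.1. *Irf8* is filled in the middle (0.91) and right (1.20) panels, and *Bcl6* (0.79 and 0.59) and *Maf* (-0.67 and -0.92) are filled on the same side in the left and middle panels.

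Genes that work with these factors were read from 7 lists, whose counts stand against the shares of all genes given above (14.8% and 13.3% between unstimulated and stimulated genotypes, 67.7% and 71.2% on stimulation). Of the 5 other IRF genes, *Irf7* and *Irf9*, which carry type I interferon responses, fell on stimulation in both genotypes. *Irf7* had log2 fold changes of -3.99 and -3.91 and *Irf9* of -2.37 and -2.26 in *Ctsl*ΔTEC and control cells (adjusted p at most 4.36e-09, edgeR quasi-likelihood). *Irf3* rose by 0.33 in *Ctsl*ΔTEC cells. Between genotypes *Irf9* was lower in *Ctsl*ΔTEC cells, with log2 fold changes of -0.29 in unstimulated and -0.40 in stimulated cells. The edgeR quasi-likelihood test of the interaction passed for 0 of the 5, 0 had an unadjusted p under 0.05 and DESeq2 called 0. The median log2 fold change of the 5 genes was -0.05 in unstimulated and -0.03 in stimulated cells, against 0.01 and -0.05 over all genes tested.

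Of 12 genes known as IRF1 targets in interferon responses, 9 fell and 2 rose on stimulation in control cells, and 10 fell and 2 rose in *Ctsl*ΔTEC cells. The median log2 fold change was -1.39 and -1.85, against 0.01 and -0.06 over all genes. The immunoproteasome gene *Psmb9* had log2 fold changes of -2.20 in control and -2.30 in *Ctsl*ΔTEC cells, and the GTPase gene *Igtp* of -2.33 and -3.07. The 2 that rose were *Cd274*, which encodes the ligand PD-L1, with log2 fold changes of 5.68 and 5.66, and *Socs1*, a feedback inhibitor of cytokine signals, with 3.74 and 3.31, which is named after its values were seen. Before stimulation 3 of the 12 (*Igtp* 0.25, *Tap1* 0.22 and *Gbp3* 0.46) were higher in *Ctsl*ΔTEC cells and 0 lower. After it 4 were lower, among them *Psmb10* (-1.24), *Psmb8* (-0.63) and *Igtp* (-0.49), and *Nlrc5*, an activator of MHC class I genes, was higher (0.69). The interaction passed for 4 of the 12, against 6.01% of all genes, and was negative in all 4, as in 695 of the 856 genes that passed: *Psmb10* (-1.09), *Igtp* (-0.74), *Psmb8* (-0.70) and *Gbp2* (-0.78).

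Among 13 partner factors of IRF4 and IRF8, the myeloid genes *Batf2*, *Batf3* and *Spi1* had too few counts to be tested. *Nfatc1*, an NFAT gene induced by TCR signals, rose by 2.59 in control and 3.11 in *Ctsl*ΔTEC cells on the log2 scale. *Batf*, which forms the AP-1 dimers that recruit IRF4, was lower in stimulated *Ctsl*ΔTEC cells, at 8.76 and 15.0 CPM against 19.0 and 27.5 CPM in control cells (log2 fold change -0.94, adjusted p = 0.0206, edgeR quasi-likelihood). *Nfatc1* was higher in stimulated *Ctsl*ΔTEC cells (0.54). *Ikzf3*, which encodes Aiolos, was higher in *Ctsl*ΔTEC cells, by 0.60 in unstimulated and 1.05 in stimulated cells, and its interaction of 0.45 passed. *Ikzf1*, which encodes Ikaros, had a log2 fold change of -0.27 in unstimulated cells. Of 10 partners tested in the model of 13 libraries, 4 rose and 2 fell in control cells and 3 rose and 2 fell in *Ctsl*ΔTEC cells, with medians of 0.52 and 0.28.

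Of 17 tested genes of other helper lineages, 6 differed before stimulation, with 2 higher and 4 lower in the *Ctsl*ΔTEC genotype (6.42% and 8.36% of all genes) and a median of -0.14. *Gata3*, the Th2 factor, was at 52.6 to 73.1 CPM in *Ctsl*ΔTEC and 97.4 to 116 CPM in control cells, a log2 fold change of -0.80 (adjusted p = 1.76e-04, edgeR quasi-likelihood), and was -0.92 after stimulation. *Zbtb7b*, which encodes the CD4-lineage factor ThPOK, had one of -0.48 and *Ikzf2* one of -0.72, and *Rora* was higher by 0.55. After stimulation *Runx3*, at 7.31 and 9.86 CPM against 19.3 and 22.3 CPM, had a log2 fold change of -1.27 and an interaction of -1.06 (adjusted p = 0.00489, edgeR). *Stat6* (0.36) and *Rora* (1.08) were higher in stimulated *Ctsl*ΔTEC cells, where 2 of the 17 were higher and 3 lower in all. On stimulation 7 of the 17 rose and 8 fell in control cells and 8 rose and 8 fell in *Ctsl*ΔTEC cells, where 67.7% and 71.2% of all genes passed. The largest rise of those was that of *Pou2af1*, a coactivator known from B and follicular helper cells, by 4.71 and 4.78.

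Of 8 tested factors of the naive state, 6 fell and 2 rose in control and 5 fell and 2 rose in *Ctsl*ΔTEC cells on stimulation, against 34.8% and 38.2% of all genes lower and 32.9% higher in each. The median log2 fold change was -1.01 and -1.09, against 0.01 and -0.06 over all genes. *Tcf7*, which encodes TCF1, had log2 fold changes of -2.40 and -3.15 and *Foxo1* of -1.60 and -1.75 in control and *Ctsl*ΔTEC cells. *Bach1*, a relative of *Bach2*, rose by 2.61 and 3.09, and *Zeb2* by 3.77 and 3.39. In unstimulated *Ctsl*ΔTEC cells *Foxo1* (-0.46) and *Klf2* (-0.71) were lower and *Bach1* (0.25) higher. In stimulated *Ctsl*ΔTEC cells *Foxo1* (-0.61) and *Tcf7* (-0.84, interaction -0.75) were lower and *Bach1* (0.72) higher.

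Most helper cytokines were too low to be tested, with *Il4*, *Il5*, *Il13*, *Il10*, *Il17a*, *Il21*, *Il22* and *Csf2* left out by the count filter in all 13 libraries. Of the 9 cytokine and receptor genes tested, 5 rose and 2 fell in control cells and 7 rose and 2 fell in *Ctsl*ΔTEC cells. The rises include genes at or near 0 before stimulation, *Il2* and *Ifng* among them. Like *Tbx21*, those genes entered the model only through stimulated libraries, so the counts of rises are not read as a result. *Cxcr5*, the receptor of follicular helper cells, rose by 4.66 and 5.28, and *Il6ra* had log2 fold changes of -2.18 and -1.94. In stimulated *Ctsl*ΔTEC cells *Il2* was at 3.07 and 5.75 CPM against 50.7 and 54.4 CPM in control cells (log2 fold change -3.55, adjusted p = 5.86e-05, edgeR quasi-likelihood), and *Il21r* at 299 and 311 against 180.3 and 184 CPM (0.74, interaction 0.73). *Il4ra*, the IL-4 receptor gene, had an interaction of 0.52 that passed. *Il6ra* was lower in *Ctsl*ΔTEC cells before (-0.73) and after stimulation (-0.50).

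Among 8 genes of corepressors and partners of BCL6 and BACH2, the edgeR quasi-likelihood test passed 0 for genotype in unstimulated cells, 0 in stimulated cells and 0 for the interaction. An unadjusted p under 0.05 was found for 1 of the 8 in each of these comparisons, and DESeq2 called 0 in each. The median log2 fold change between genotypes was -0.08 and 0.13. On stimulation 5 rose and 2 fell in both genotypes. The small MAF genes, whose products pair with BACH proteins, rose, *Mafg* by 2.36 and 2.10 and *Maff* by 3.43 and 3.81 in control and *Ctsl*ΔTEC cells, whereas *Mta3*, a BCL6 corepressor, had log2 fold changes of -1.59 and -1.29.

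The genes whose pattern over the 13 libraries was most like that of each factor were found by the root mean square difference of log2 CPM after each gene was centred on its own mean, among 10090 genes. *Irf8* was nearest to *Nfkbid* (0.262 log2 units), *Pdcd1* (0.265) and *Shmt1* (0.279). *Bcl6* was nearest to *Slamf1* (0.241), *Lta* (0.265) and *Gramd1b* (0.306), and *Irf4* to *Itm2a* (0.447), *Ncs1* (0.465) and *Odc1* (0.481). *Irf4* thus had no close neighbour, and its nearest gene was farther from it than the third nearest of *Irf8* or *Bcl6*.

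The other factors had these neighbours. *Prdm1* was nearest to *Themis* (0.212), *Paqr7* (0.216) and *1600014C10Rik* (0.216), and *Maf* to *Flna* (0.141), *Foxo1* (0.173) and *Lats2* (0.190). *Irf1* was nearest to *Zbtb14* (0.125), *Mindy1* (0.137) and *Smpd2* (0.139), *Irf2* to *Prkaca* (0.0792), *Stim1* (0.0988) and *Gsk3b* (0.0994), and *Bach2* to *Exoc2* (0.127), *Foxk2* (0.129) and *Mtf1* (0.129). For *Tbx21*, with so few counts, the nearest gene, *Olfr586*, was at 0.746.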

How the data were processed

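RNA-seq libraries of sorted M2 CD4SP thymocytes were analysed, 1 mouse each, grouped by the genotype and stimulation in the titles. The authors deposited, for each library, estimated counts, effective lengths and TPM (transcripts-per-million) per Ensembl transcript from kallisto 0.48, with the version from the submitters' processing notes. The labels name polyA RNA and the study's methods rRNA depletion, and control mice are fl/fl in the labels, so neither point is settled here. Estimated counts were summed per gene by GENCODE M21 (0.365% to 0.461% of counts had no gene there), rounded, and tested with edgeR 4.0.16 in R 4.3.3 (TMM, filterByExpr, quasi-likelihood, Benjamini-Hochberg over all genes, threshold 0.1). Unstimulated genotypes were fitted on 9 libraries and all else in a 4-group model of 13. Replicates are separate mice. The study used DESeq2, and DESeq2 1.42.0 was an alternative here, beside other scalings, filters, a length offset, a Y-linked covariate, dates, thinning and leaving out each mouse. The fits were tested on simulated counts. CPM (counts-per-million) used TMM over 13 libraries, log2 CPM a prior count of 2, floors 3 counts, and intervals cover 95%. Levels between genes were compared as TPM.

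The genes named are the 9 factors, up to 4 passing genes per list and comparison by adjusted p, checks of the design and the 3 nearest genes of each factor, and 1 item that this rule would name is not reported here. The factors and lists were chosen with earlier results of these data known. Dates were read from the file names. Floors and intervals of counts cover counting error only.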

Additional observations from a re-analysis of the deposited data

Results flagged for a closer look

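*Maf* in unstimulated control mouse 1 stood apart from the other 3 control mice. Its log2 CPM was 3.33 (10.0 CPM), against 3.09 for the next and 3.05 for the lowest. Of the 16 groups of 4 or 5 mice examined in this way for the 8 detected genes, this was the 1 that exceeded Dixon's limit, and chance alone gives about 1 in 20, or 0.8 of 16.

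The genotype difference of *Irf8* changed on stimulation, by 1.20 on the log2 scale, as tested by the interaction in the edgeR model of 13 libraries (adjusted p = 0.00555). In CPM, both *Ctsl*ΔTEC mice were above both control mice after stimulation. Before it all 5 were below all 4 control mice in CPM but not in TPM, and that difference did not pass (adjusted p = 0.377, edgeR).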

How the results depend on the processing

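Over 18 settings and 13 fits that each left out a mouse, 1029 values of the 9 genes were recomputed, of which 973 kept their direction and side of the threshold, 33 lost it, 3 passed it and 20 reversed. In unstimulated cells the Y-linked covariate left 1 gene and 429 genes of all, against 4 and 1943. Same-numbered mice of the genotypes had correlations of -0.16, 0.35, -0.10 and -0.14 in their deviations from the group means. These cannot tell whether mouse numbers pair the mice, since only mouse 2 had the same date in both genotypes. A replicate block gave 3 genes and 1051 of all, without *Prdm1* (0.43). Among stimulated genotypes thinning to the smallest total left 3 genes, without *Maf* (-0.65) and *Irf1*. The stimulated libraries alone gave 2 genes and 1127 of all against 5 and 1898. A threshold of 0.05 left 471 interactions of 856, and library totals gave 2 genes (*Irf8* and *Prdm1*). Ranks by CPM matched those by TPM in 20 of 36 cases.

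Leaving out each mouse gave 4 to 4 of the 9 genes and 1534 to 2343 of all in unstimulated genotypes, 1 to 5 and 945 to 2235 in stimulated genotypes, 1 to 2 and 334 to 1227 for the interaction, 8 to 9 and 8353 to 9767 for stimulation in control and 9 to 9 and 8975 to 10386 in *Ctsl*ΔTEC cells, where the stimulation counts include *Tbx21*, at 0 before it. The exact permutation test then passed 3 to 5 genes. The lowest stimulated count, 1, came without *Ctsl*ΔTEC mouse 6, and the counts were 3 without *Ctsl*ΔTEC mouse 7 or control mouse 5.

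Reversals were of small differences that did not pass. *Irf1* between unstimulated genotypes was 0.032 with library totals, 0.17 with the Y-linked covariate and -0.070 to 0.057 without single mice. *Bach2* between stimulated genotypes was 0.22 with a length offset, and its interaction 0.0053 with DESeq2, 0.0052 with RLE factors, 0.029 with at least 10 counts in every library, 0.32 with the length offset and -0.14 to 0.084 without single mice. *Tbx21* between stimulated genotypes was 0.028 with DESeq2 and -1.05 to 0.21 without single mice, and had no value without control mouse 6. The interactions of *Bcl6* (-0.44 to 0.071) and *Maf* (0.15 thinned, -0.42 to 0.069) reversed too. The cause was not tested.

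Higher genes were 43.4% of calls in unstimulated cells and 56.8% with library totals, and 20.8% in stimulated cells and 36.6% with at least 10 counts in every library. Library totals moved the median of all genes by -0.14 on stimulation in *Ctsl*ΔTEC cells and by less elsewhere. Control mouse 5 had the fewest counts, which limits *Prdm1*, *Maf* and *Tbx21* in stimulated cells.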
